A study of Mus musculus with 39 samples.

Results

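The genes described here are 9 glucocorticoid-responsive genes of mouse lung: Fkbp5, Tsc22d3, Zbtb16, Sgk1, Klf9, Ddit4, Dusp1, Cebpd and the receptor gene Nr3c1. They were taken by gene symbol from the probe annotation of a 2-colour oligonucleotide array. The annotation names 16887 genes through probes with a single symbol, and each of the 9 has 1 such probe. All 9 probes passed the filter on dim signals, as did those of 14659 genes in all. Another probe carries the symbols 2310051E17Rik and Klf9 together, of which the former is an older name of Klf9 in RefSeq, and its differences in some comparisons are given beside those of Klf9 without being counted.

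Glucocorticoids are steroid hormones of the adrenal cortex. In mice the main hormone is corticosterone, whose level in blood follows the time of day and rises under stress such as restraint. The hormone enters the cell and binds the glucocorticoid receptor, the product of Nr3c1, which is held by heat shock chaperones until then and afterwards binds DNA as a dimer at a palindromic element. In lung the receptor is known for its part in maturation before birth and for restraining inflammation. Corticosterone was not measured in these samples.

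The arrays carried RNA from part of the left lung of 39 male C57B1/CBA mice, each lung on an array of its own, with a label age of 8 to 10 weeks. Exposure to mainstream tobacco smoke (MTS) was through the nose, from 2 cigarettes daily over either 6 or 12 weeks with 5 exposure days in each week. Sham mice were placed in restrainers without smoke. In the smoke and break and break sham groups, 6 weeks without exposure followed. By the labels 5 mice formed each group except 12 week smoke, with 4. A time of 3 hours since exposure is on every label, those of the break groups included, and what the mice of the break groups went through on their last day is not given there. Mice with a break were also 6 weeks further from their first exposure, so that the end of handling and time cannot be told apart within an arm. A log2 ratio is that of lung RNA over a common universal mouse reference, so only differences between lungs are read from it, and in whole tissue fewer cells of a type and less RNA per cell cannot be told apart.

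The promoter sequences are shown first because the receptor acts through its DNA element. RefSeq windows of 300 bases, from 250 before to 50 after an annotated start (mouse build GRCm38.p6), were matched by symbol for 6 of the 9 genes, 13 windows in all. Zbtb16, Cebpd and Nr3c1 had no window among those used. For the 9 genes, windows on a single chromosome were left out of the search. The shares of all windows include that chromosome. The letters searched were the palindromic core ACANNNTGT, which reads the same on both strands, and its 6-letter arm AGAACA, on the other strand TGTTCT, which can overlap the core. The core occurred in 2 of the 13 windows and in 6.85% of all 32851 windows of that length. The arm occurred in 4 of the 13, and in 19.0% of all windows. The window below of Sgk1 (chr10:21993640-21993939, plus strand) is the only one of the 13 that holds the core together with arms, and that of Tsc22d3 (chrX:140600473-140600772, minus strand) belongs to the gene with the largest difference between groups below. Both are written 5′ to 3′, with core and arm letters in capitals.
Sgk1: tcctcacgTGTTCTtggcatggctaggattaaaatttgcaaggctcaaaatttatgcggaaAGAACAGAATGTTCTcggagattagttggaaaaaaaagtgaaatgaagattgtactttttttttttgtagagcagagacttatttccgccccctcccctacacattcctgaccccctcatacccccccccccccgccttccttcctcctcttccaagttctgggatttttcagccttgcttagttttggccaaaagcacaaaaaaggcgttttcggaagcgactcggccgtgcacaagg
Tsc22d3: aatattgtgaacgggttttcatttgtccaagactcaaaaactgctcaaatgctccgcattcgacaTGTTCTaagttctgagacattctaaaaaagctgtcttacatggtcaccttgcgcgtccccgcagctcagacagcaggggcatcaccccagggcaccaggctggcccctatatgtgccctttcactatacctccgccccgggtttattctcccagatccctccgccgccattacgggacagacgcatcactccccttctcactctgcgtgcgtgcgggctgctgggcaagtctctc
In the Sgk1 window the core starts 186 bases before the annotated start and lies inside a full palindrome, with an arm at -189 and another at -180, and a further arm stands at -242. In 1 other window of Sgk1 (chr10:21978422-21978721) the core stands at -127. The Tsc22d3 window holds a single arm at -185. The windows of Fkbp5, Klf9, Ddit4 and Dusp1, 1 each, hold neither set of letters, which says only that these letters are not in these 300 bases.

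**Figure D1:**
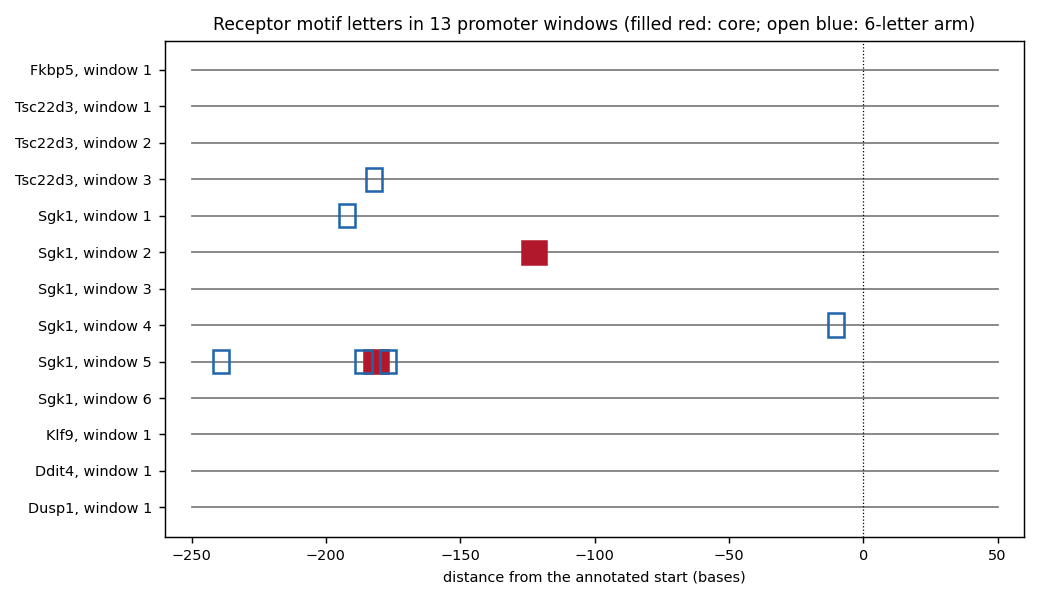
Receptor motif letters in the 13 promoter windows of 6 genes; the x axis is the distance in bases from the annotated start, filled boxes are the core and open boxes the 6-letter arm. Core letters appear in 2 windows of Sgk1, and arms in 3 windows of Sgk1 and 1 of Tsc22d3.

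Precision on an array is set by its signal over background. The median signal of the lung channel (Cy5) was 268 to 1532, and 48.4% to 94.6% of the probes of an array lay above the threshold set by its negative control spots. Tsc22d3, Sgk1, Klf9, Ddit4, Dusp1 and Cebpd were above it in all 39 arrays, Nr3c1 in 34, Zbtb16 in 33 and Fkbp5 in 30. Cebpd reached the upper limit of the scanner in 5 arrays and Dusp1 in 3, and in 4 arrays the reference channel (Cy3) of Ddit4 did. The label days of the arrays fall into 5 runs, with 7 or 8 arrays in each, and the run was kept in the model as a block. All 5 markers of alveolar type I cells and at least 5 of 6 of type II cells were above the threshold in every lung. As a check of the labels, Cyp1a1, a smoke-induced cytochrome P450, was at 5.07 to 8.06 in the 9 smoke arrays and 0.45 to 2.81 in 29 of the other 30. The array labelled 6 week sham, replicate 2, stood at 6.46; it is kept under its label, and the calls below were made with and without it.

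Without a break, transcripts of 4 of the 9 genes were higher than with a break when all 8 groups were combined: Tsc22d3, Klf9, Fkbp5 and Cebpd. None was lower. Against these 4 of 9, 8.30% of the 17560 probes tested passed in this comparison (limma, Benjamini-Hochberg adjusted p under 0.05 over all probes). The median difference of the 9 genes was 0.21 on the log2 scale, and that of all probes 0.00. The same 4 genes passed when the array labelled 6 week sham, replicate 2, was left out.

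Tsc22d3 encodes GILZ, a leucine zipper protein that mediates anti-inflammatory actions of glucocorticoids. Its log2 ratios were 3.02, 3.15, 3.30, 3.46 and 3.50 in 6 week smoke and 2.86, 3.21, 3.29 and 3.46 in 12 week smoke. In 6 week sham they were 2.89, 3.00, 3.08, 3.37 and 3.56, and in 12 week sham 2.72, 2.88, 2.89, 2.93 and 3.02. Of these 19 lungs without a break, 13 were above every lung with one. After a break the values were 1.52, 2.04, 2.28, 2.37 and 2.74 in 6 week smoke and break and 2.06, 2.20, 2.38, 2.51 and 2.69 in 12 week smoke and break. Break sham mice had 2.25, 2.34, 2.35, 2.79 and 2.97 in the 6 week arm and 2.39, 2.49, 2.49, 2.70 and 2.76 in the 12 week arm. Of the 20 lungs with a break, 16 were below every lung without one. The order of the group means was 6 week smoke, 12 week smoke, 6 week sham, 12 week sham, 12 week break sham, 6 week break sham, 12 week smoke and break and 6 week smoke and break, and the ranges of each pair of neighbours in it overlapped. Over all 8 groups Tsc22d3 was 1.66-fold higher without a break, a log2 difference of 0.73 ± 0.07 (SE; adjusted p = 3.64e-08). The difference was above 0 in 5 of 5 label runs, from 0.63 to 0.80.

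In smoke mice and in sham mice the mean of Tsc22d3 was higher without a break, but in sham mice the difference at 12 weeks did not pass. Smoke against smoke and break gave 1.10 ± 0.15 at 6 weeks (adjusted p = 1.99e-05) and 0.82 ± 0.16 at 12 weeks (adjusted p = 0.00265), and in neither arm did the groups overlap. Sham against break sham, the comparison without smoke, gave 0.69 ± 0.15 at 6 weeks (adjusted p = 0.0282) and 0.32 ± 0.14 at 12 weeks (adjusted p = 0.467). Over both durations it was 0.50 ± 0.10 (adjusted p = 0.0105), above 0 in 5 of 5 label runs, from 0.34 to 0.57. The 6 week sham call was lost when any of 7 single arrays was left out (adjusted p from 0.056 to 0.111): 6 week sham replicates 3, 4 and 5 and 6 week break sham replicates 1, 3, 4 and 5. The pooled call was kept under each omission, but not with label run left out of the model (adjusted p = 0.0777) or with only the 4 groups compared in the fit (adjusted p = 0.0521). With only the groups compared in the fit, the smoke calls were also lost, at adjusted p = 0.0552 for 6 weeks and 0.127 for 12 weeks. With 12 week sham set against 6 week break sham, which are equally far from their first exposure, the difference was 0.35 ± 0.14 (adjusted p = 0.398).

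Klf9 encodes a zinc finger transcription factor. Its log2 ratios were 1.22, 1.30, 1.79, 1.99 and 2.04 in 6 week smoke and 1.14, 1.62, 1.95 and 2.08 in 12 week smoke. Values of 0.82, 1.16, 1.38, 1.78 and 2.11 were found in 6 week sham, and of 0.62, 1.30, 1.43, 1.67 and 1.98 in 12 week sham. Smoke and sham lungs overlapped. After a break the values were 0.15, 0.63, 0.93, 1.19 and 1.41 in 6 week smoke and break and 0.59, 0.98, 1.11, 1.20 and 1.41 in 12 week smoke and break. Break sham mice had 0.90, 1.28, 1.30, 1.70 and 2.10 in the 6 week arm and 0.99, 1.02, 1.49, 1.59 and 1.67 in the 12 week arm. The smoke and break groups were lowest on average, and the sham and break sham groups overlapped widely. Over all groups Klf9 was higher without a break by 0.39 ± 0.09 (adjusted p = 0.00332), above 0 in 5 of 5 label runs, from 0.04 to 0.57. It was higher in 6 week smoke than in 6 week smoke and break by 0.81 ± 0.17 (adjusted p = 0.00695), whereas in the 12 week arm the difference of 0.53 ± 0.18 missed the threshold (adjusted p = 0.162). The call over all groups was lost with label run left out of the model (adjusted p = 0.105). That at 6 weeks was lost likewise (adjusted p = 0.156), and also with marked spots left out (adjusted p = 0.071). Sham against break sham gave 0.12 ± 0.12 over both durations (adjusted p = 0.757). The other probe, annotated to 2310051E17Rik and Klf9, differed by 0.49 ± 0.08 between no break and break (adjusted p = 5.47e-05) and by 0.28 ± 0.11 between sham and break sham (adjusted p = 0.245). It was brighter than the counted probe, with a mean Cy5 signal of 18440 against 1969. In smoke against sham it gave 0.03 ± 0.15 at 6 weeks and 0.38 ± 0.16 at 12 weeks (unadjusted p = 0.0276 in limma, not called). The counted probe gave 0.03 ± 0.17 and 0.19 ± 0.18.

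Fkbp5 encodes FKBP51, a co-chaperone that lowers the affinity of the receptor for hormone and is itself induced by it. Its log2 ratios were -0.57, -0.49, -0.34, -0.29 and -0.19 in 6 week smoke and -0.48, -0.45, -0.41 and -0.19 in 12 week smoke. The 9 smoke lungs thus spanned less than 0.4, and sham lungs spread more widely, at -1.61, -1.16, -0.74, -0.30 and -0.09 at 6 weeks and -1.60, -1.0, -0.91, -0.87 and -0.54 at 12 weeks. The highest 6 week sham value, -0.09, is that of replicate 2. Lungs with a break had -1.92, -1.13, -1.03, -0.63 and -0.58 in 6 week smoke and break, -1.30, -1.27, -1.23, -1.17 and -0.97 in 12 week smoke and break, -1.71, -1.66, -1.10, -0.96 and -0.94 in 6 week break sham and -1.76, -1.73, -0.86, -0.76 and 0.01 in 12 week break sham. Every smoke value was above every smoke and break value, in both arms, but the nearest values at 6 weeks, -0.57 and -0.58, hardly differed. The probe was not above the background threshold in 7 of the 20 arrays with a break, that at -0.58 among them, and in 2 of the 19 without one. Over all groups the difference between no break and break was 0.51 ± 0.12 (adjusted p = 0.00686), above 0 in 5 of 5 label runs, from 0.16 to 0.83. Smoke against smoke and break gave 0.68 ± 0.24 at 6 weeks and 0.90 ± 0.26 at 12 weeks (adjusted p = 0.147 and 0.0703), and sham against break sham 0.22 ± 0.17 over both durations (adjusted p = 0.638). The probe was dim, with a Cy5 signal of 140 to 783, and the scanner software had marked its spot in 26 of 39 arrays. With marked spots left out, the contrast over all groups could not be fitted for this probe.

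Cebpd encodes C/EBP delta, a transcription factor of the acute phase response. Its log2 ratios were 1.21, 1.27, 2.23, 2.45 and 2.58 in 6 week smoke and 1.66, 2.16, 2.48 and 2.65 in 12 week smoke. For 6 week sham they were 1.26, 1.45, 1.47, 2.09 and 2.34, and for 12 week sham 0.59, 1.52, 1.75, 1.87 and 2.24. Of the 19 lungs without a break, 5 were above every lung with one. After a break the values were 0.16, 1.04, 1.69, 1.88 and 2.25 in 6 week smoke and break and 0.76, 1.26, 1.37, 1.54 and 1.73 in 12 week smoke and break. Break sham mice had 0.63, 0.78, 1.33, 1.37 and 2.13 in the 6 week arm and 0.70, 1.55, 1.76, 1.96 and 2.08 in the 12 week arm. The groups overlapped in each arm. The difference between no break and break was 0.49 ± 0.12 (adjusted p = 0.00955). It was above 0 in 4 of 5 label runs, from -0.01 to 0.81, and the call was lost with label run left out of the model (adjusted p = 0.131). Cebpd did not pass in smoke against smoke and break in either arm. Nor did it pass in sham against break sham over both durations, where it was above 0 in 3 of 5 label runs, from -0.30 to 0.72. In the 5 arrays at the scanner limit, 2 of 6 week smoke, 2 of 6 week sham and 1 of 6 week break sham, the ratio is a lower bound.

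**Figure D2:**
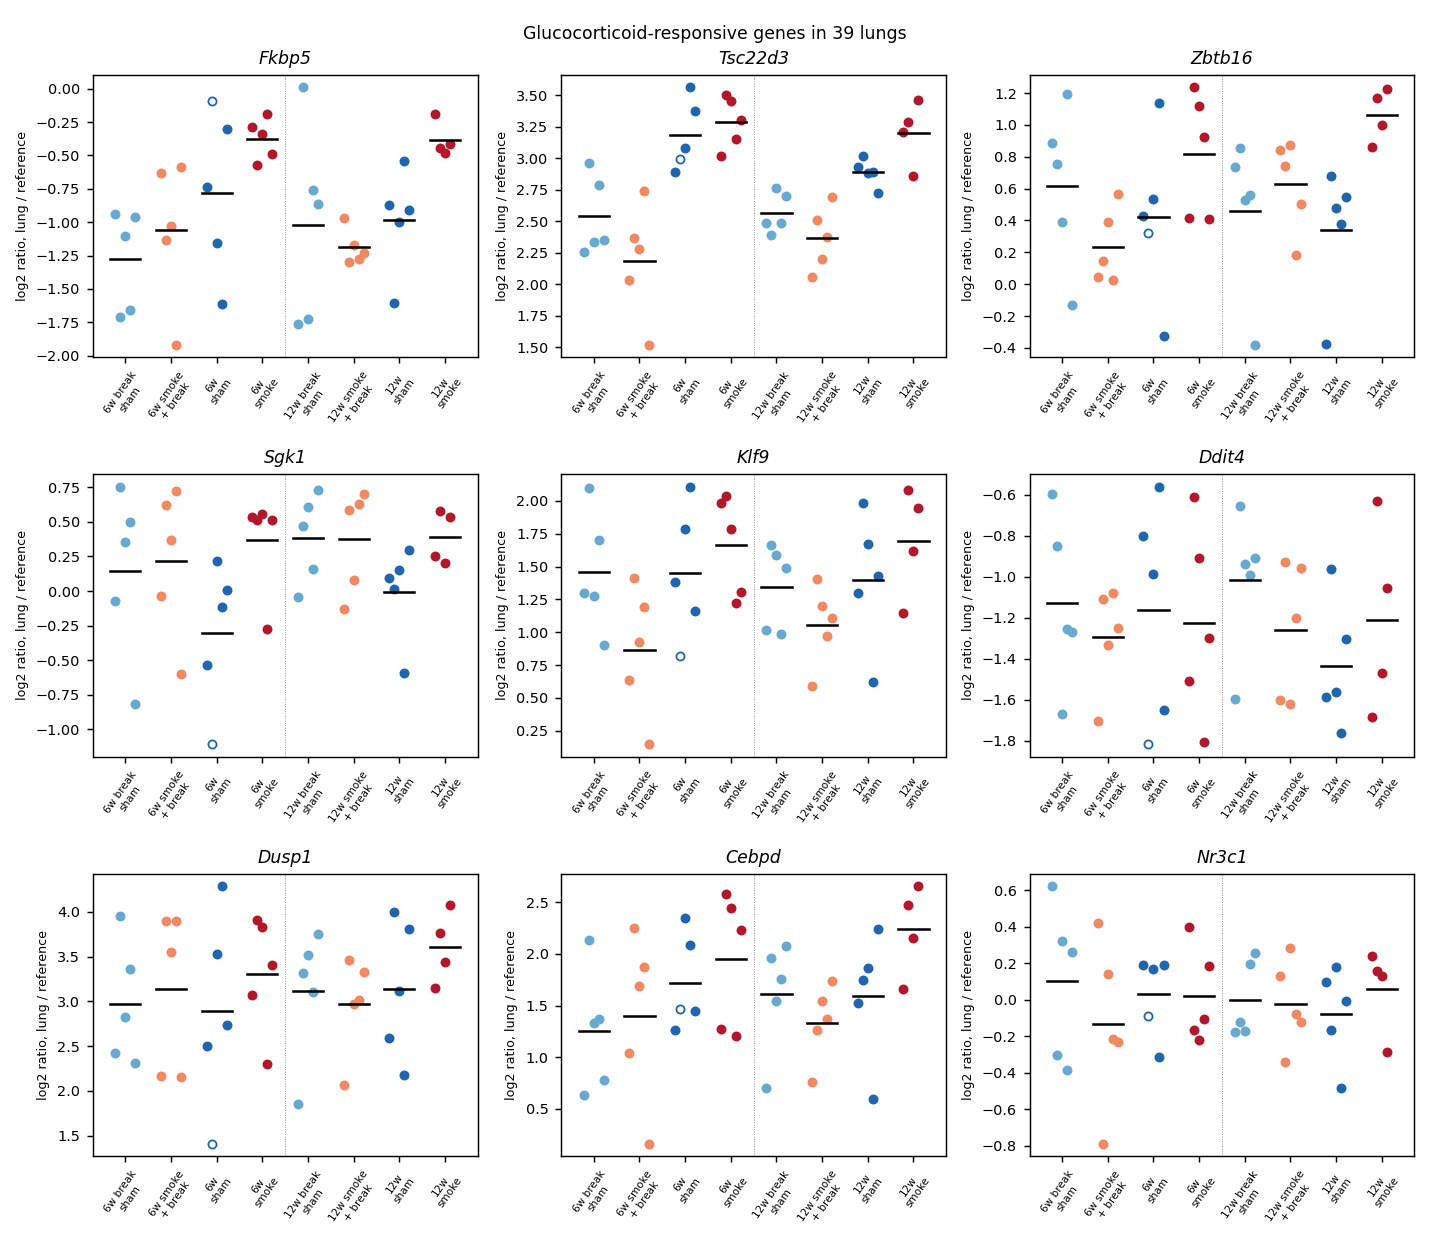
Log2 ratio of lung over reference of the 9 genes in 39 lungs, by group; each point is 1 lung, the bar is the group mean and the open point is the array labelled 6 week sham, replicate 2. Tsc22d3 separates most lungs without a break (2.72 to 3.56) from those with one (1.52 to 2.97), and the 9 smoke lungs lie close together in Fkbp5 (-0.57 to -0.19).

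The other 5 genes did not pass in any of the 15 comparisons. Sgk1 encodes a kinase that raises sodium channel activity in epithelia. Its group means ran from -0.31 in 6 week sham to 0.39 in 12 week smoke, and no break minus break was -0.16 ± 0.11 (adjusted p = 0.447). In sham against break sham Sgk1 was on the other side of 0 from Tsc22d3, at -0.36 ± 0.16 (adjusted p = 0.316), below 0 in 5 of 5 label runs. Zbtb16 encodes the zinc finger protein PLZF, and its lowest mean was 0.24 (6 week smoke and break) and its highest 1.06 (12 week smoke), with a difference of no break minus break of 0.18 ± 0.12 (adjusted p = 0.397). The Zbtb16 probe was dim, with a Cy5 signal of 161 to 1244, and its spot was marked in 34 of 39 arrays. With marked spots left out, smoke against sham over both durations could not be fitted for Zbtb16. Ddit4 encodes REDD1, an inhibitor of the mTOR kinase, and its means lay between -1.44 and -1.02 (no break minus break -0.07 ± 0.10, adjusted p = 0.773). The ratio is an upper bound in the 4 arrays with Cy3 at the scanner limit, 1 each of 6 week smoke, 12 week smoke, 6 week sham and 6 week break sham. Dusp1 encodes a phosphatase of MAP kinases. Its group means lay between 2.89 and 3.61, and in 6 week sham its values ran from 1.41, that of replicate 2, to 4.28, or from 2.50 without that array (no break minus break 0.21 ± 0.15, adjusted p = 0.467). Nr3c1, the receptor, had group means between -0.13 and 0.10, the narrowest range of the 9 genes, and differed by 0.01 ± 0.07 (95% interval -0.14 to 0.16, adjusted p = 0.96).

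In smoke against sham none of the 9 genes passed the threshold. In smoke against sham, 0 of 9 passed at 6 weeks (0.0626% of all probes did) and 0 of 9 at 12 weeks (0.433%), with 1 and 3 genes at an unadjusted p under 0.05 in limma. Among the 17560 probes, 1477 at 6 weeks and 1645 at 12 weeks had such an unadjusted p. Over both durations 0 of 9 passed (1.22% of all probes), with 3 at an unadjusted p under 0.05: Fkbp5 at 0.59 ± 0.18 (adjusted p = 0.0967), Zbtb16 at 0.48 ± 0.17 (adjusted p = 0.194) and Sgk1 at 0.43 ± 0.16 (adjusted p = 0.238). Among the 17560 probes, 2150 had such an unadjusted p over both durations. Of the 9 smoke lungs 6 were above every sham lung in Sgk1 and 3 in Zbtb16, and in Fkbp5 7 of the 10 sham lungs were below every smoke lung. Each of these 3 genes was above 0 in 5 of 5 label runs, Fkbp5 from 0.12 to 1.09, Zbtb16 from 0.20 to 0.80 and Sgk1 from 0.17 to 0.62. Without the array labelled 6 week sham, replicate 2, all 3 stayed above 0 in 5 of 5 runs, but the lowest run was 0.23 for Fkbp5 and 0.02 for Sgk1. Only 1 sham lung fell in run 4 and only 1 smoke lung in run 5, so durations were not balanced in these runs. That smoke lung, 6 week smoke replicate 4, had the lowest share of probes above the threshold, 48.4%. The share of all probes above 0 in 5 of 5 runs was not counted, in this or any other comparison. At 12 weeks the smoke and sham lungs did not overlap in Fkbp5 (0.69 ± 0.26, adjusted p = 0.331) or in Zbtb16 (0.65 ± 0.24, adjusted p = 0.338). How many of all probes also lacked overlap was not counted, here or in the comparisons with break groups above. The median of the 9 genes over both durations was 0.25, and that of all probes 0.01. The intervals of the 9 genes together reached from -0.31 to 0.96. The Fkbp5 value changed sides of the threshold with the processing. In 10 of the 14 other settings that gave a value it stayed uncalled, with an adjusted p of up to 0.307 in limma. It passed from spot means (adjusted p = 0.0335), with array weights (0.0115) and with only the 4 groups of the comparison in the fit (0.0367). It also passed at the looser threshold of 0.1. With single arrays left out, it stayed uncalled in 38 of 39 omissions, at an adjusted p of up to 0.22. The exception was the omission of 12 week break sham replicate 2 (adjusted p = 0.0193).

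After a break, mice with and without earlier smoke were compared. In smoke and break against break sham 0 of 9 passed in either arm, as did 0% of all probes in the 6 week arm and 0% in the 12 week arm. At an unadjusted p under 0.05 stood 2 genes in the 6 week arm, Klf9 at -0.59 ± 0.17 (adjusted p = 0.939) and Tsc22d3 at -0.35 ± 0.14 (adjusted p = 0.999), and 0 in the 12 week arm. Among the 17560 probes, 758 in the 6 week arm and 1129 in the 12 week arm did so. Klf9 was lower in 6 week smoke and break than in 6 week break sham in 5 of 5 label runs.

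Handling without smoke was read from sham against break sham, where it cannot be told apart from the 6 weeks of further time within an arm. In the 6 week arm 1 of 9 genes passed, Tsc22d3 (0.290% of all probes), and in the 12 week arm 0 of 9 (0.0228%), with 2 at an unadjusted p under 0.05, Tsc22d3 and Ddit4, the latter at -0.42 ± 0.20 (adjusted p = 0.485). Among the 17560 probes, 1678 had such an unadjusted p in the 12 week arm. Over both durations 1 of 9 passed, again Tsc22d3 (0.911% of all probes). In 12 week sham against 6 week break sham it was 0 of 9 (0.0399%), with 1 at an unadjusted p under 0.05, Tsc22d3, as were 1729 of the 17560 probes. Smoke and handling together, again not apart from time, were read from smoke against smoke and break. In it 2 of 9 passed at 6 weeks, Tsc22d3 and Klf9 (2.26% of all probes), and 1 of 9 at 12 weeks, Tsc22d3 (1.63%).

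**Figure D3:**
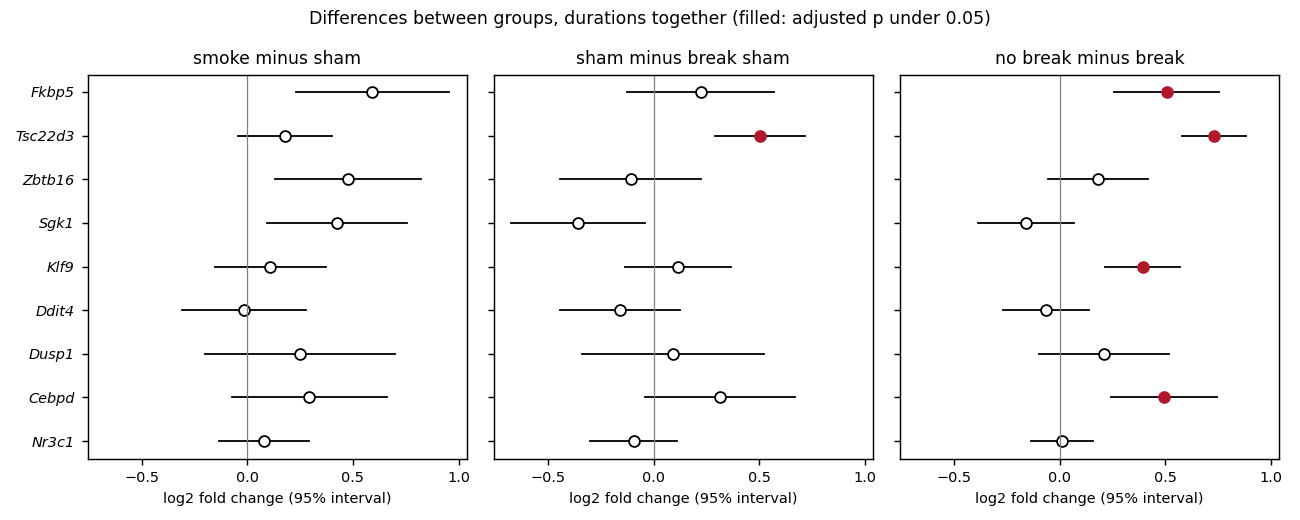
Log2 fold changes of the 9 genes in 3 comparisons over both durations, with 95% intervals on the x axis; filled points passed an adjusted p under 0.05. Tsc22d3 passed in sham minus break sham, and Tsc22d3, Klf9, Fkbp5 and Cebpd in no break minus break, while no gene passed in smoke minus sham.

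Whether the effects differed was tested directly. The smoke effect minus the handling effect, in both of which the sham arrays enter, passed for 0 of 9 genes (0.228% of all probes), with 1 at an unadjusted p under 0.05, Sgk1, at 0.78 ± 0.28 (adjusted p = 0.289). Among the 17560 probes, 1719 had such an unadjusted p. The handling effect is the difference of sham from break sham and also holds time. For Tsc22d3 the estimates were 0.50 for handling and 0.18 for smoke, a difference of -0.33 ± 0.18 (95% interval -0.70 to 0.05, adjusted p = 0.59). For Fkbp5 they were 0.22 for handling and 0.59 for smoke, a difference of 0.37 ± 0.30 (95% interval -0.25 to 0.99, adjusted p = 0.746). Both intervals held 0, so no order of the effects is given for these genes. The interaction of smoke with break passed for 0 of 9 genes (0.125% of all probes), with 4 at an unadjusted p under 0.05, as were 1683 of the 17560 probes. The 4 genes were Zbtb16 at 0.58 ± 0.23, Fkbp5 at 0.57 ± 0.25, Klf9 at 0.55 ± 0.18 and Tsc22d3 at 0.45 ± 0.15 (adjusted p = 0.388, 0.437, 0.222 and 0.245). The interaction was above 0 in all 9 genes, whose median was 0.40 against 0.01 for all probes. The share of all probes above 0 was not counted, and the 9 genes were read on the same arrays, so their signs are not independent. The smoke effect at 12 weeks minus that at 6 weeks passed for 0 of 9 genes and for 0% of all probes, with 0 genes and 854 of the 17560 probes at an unadjusted p under 0.05 in limma.

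Label run took up much of the spread of some genes. It held 58.1% of the sum of squares of Dusp1, 50.5% of Nr3c1, 44.1% of Cebpd, 43.2% of Klf9 and 40.9% of Ddit4, against 10.0% of Tsc22d3, in which group held 73.7%. Run means of Dusp1 went from 2.48 to 3.76 and those of Klf9 from 0.93 to 1.81. In Dusp1 no break minus break was 0.70 in run 1 and -0.73 in run 5, and -0.48 in run 5 without 6 week sham, replicate 2.

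**Figure D4:**
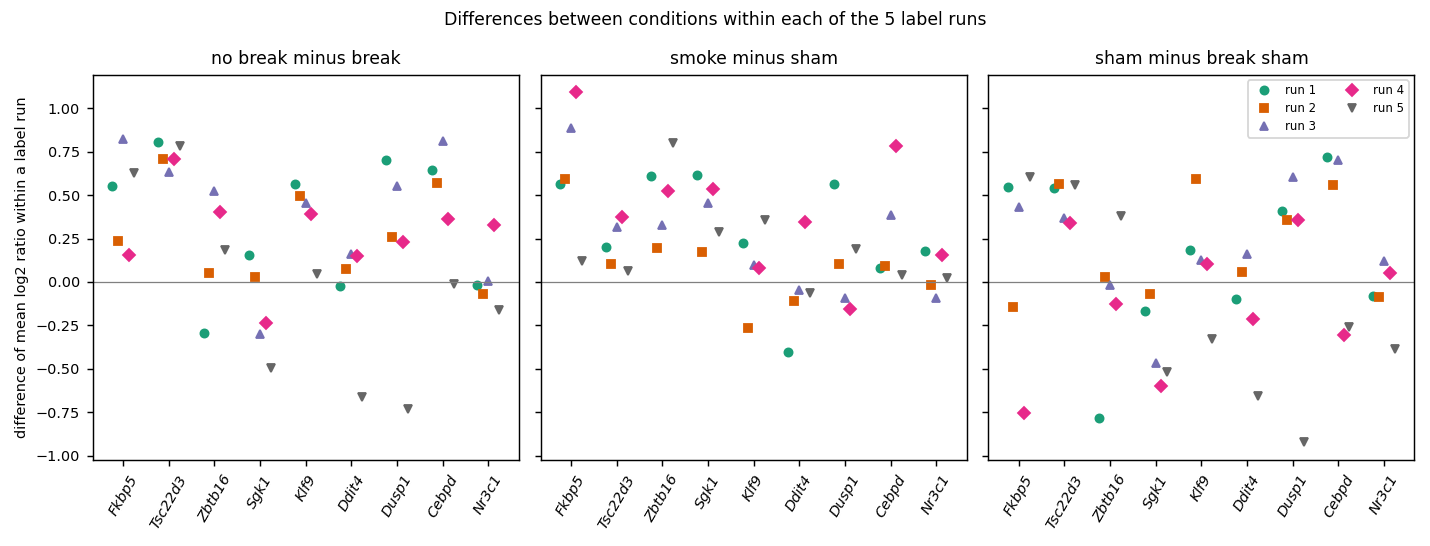
Difference of mean log2 ratio within each of the 5 label runs, for the 9 genes in 3 comparisons (durations together, all arrays); each point is 1 run. For Tsc22d3 the no break minus break points lie between 0.63 and 0.80, and for Dusp1 between -0.73 and 0.70.

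Other genes of the pathway, from lists written with earlier results of these data known, were read in the same fit. Of 40 further glucocorticoid-responsive genes 37 were measured, and without a break 7 rose and 0 fell (median 0.13). They were Map3k6, a stress-activated kinase (1.25 ± 0.11, adjusted p = 1.4e-09), Ccn2, a matrix-associated growth factor (0.49 ± 0.09), Timp3, an inhibitor of metalloproteinases (0.45 ± 0.11), Glul, glutamine synthetase (0.39 ± 0.08), Per1, a clock repressor (0.37 ± 0.10), Lpin1, a phosphatidate phosphatase (0.26 ± 0.06), and Arrdc2 (0.24 ± 0.05). In smoke against sham over both durations 3 of the 37 rose and 0 fell: Map3k6 (0.63 ± 0.15), the growth arrest gene Gadd45g (0.56 ± 0.12) and Lcn2, lipocalin 2 (0.44 ± 0.10). In sham against break sham 2 rose, Map3k6 (0.83 ± 0.15) and Ccn2 (0.58 ± 0.12). Without the array labelled 6 week sham, replicate 2, Cdkn1a, a cell cycle inhibitor, passed too, at -0.51 in sham against break sham (adjusted p = 0.028) and at -0.30 in no break minus break (adjusted p = 0.0159).

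Of 20 receptor chaperones, steroid-converting enzymes and cofactors 16 were measured. Without a break 6 rose and 0 fell (median 0.09), 5 of them chaperones or co-chaperones: Hspa8 (0.76 ± 0.11), Dnaja1 (0.40 ± 0.07), Fkbp4 (0.33 ± 0.06), Stip1 (0.28 ± 0.06) and Ptges3 (0.20 ± 0.05). The other, H6pd, supplies reducing power to the enzyme that regenerates corticosterone (0.22 ± 0.05). None of the 16 passed in smoke against sham or in sham against break sham over both durations. Of 24 close relatives of the 9 genes, 21 were measured, and without a break 6 rose and 0 fell (median 0.12): Dusp4 (0.43 ± 0.06), Fkbp4, Klf4 (0.33 ± 0.09), Klf10 (0.27 ± 0.08), Tsc22d1 (0.23 ± 0.04) and Dusp16 (0.17 ± 0.05). Without the array labelled 6 week sham, replicate 2, 5 of the 21 rose and 1 fell, since Dusp16 no longer passed and Zbtb7b did, at -0.16 (adjusted p = 0.00882). In smoke against sham 1 of the 21 rose, Cebpb (0.44 ± 0.11, adjusted p = 0.0292).

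Clock genes and cell type markers also differed between lungs with and without a break. Of 16 clock genes 9 rose without a break and 2 fell (median 0.35), the largest being Per2 (2.01 ± 0.12), Dbp (1.08 ± 0.08) and Hlf (0.98 ± 0.08), with Arntl at -0.72 ± 0.09 and Clock at -0.21 ± 0.06. The others that rose were Cry1, Nr1d2, Bhlhe40, Per1, Bhlhe41 and Per3, by 0.33 to 0.71. The mean log2 ratio over the 16 was 0.30 to 0.73 in lungs of the 4 groups without a break and -0.05 to 0.42 in those with one. Of 4 measured B cell markers 0 rose and 3 fell, Ighm (-0.69 ± 0.15), Cd79b (-0.61 ± 0.10) and Ms4a1 (-0.44 ± 0.10), with the mean over the 4 at -0.49 to 0.85 without a break and 0.11 to 1.68 with one. The fibroblast gene Col3a1 (-0.63 ± 0.08), the cilia regulator Foxj1 (-0.55 ± 0.11) and the macrophage marker Adgre1 (-0.23 ± 0.07) were lower, 1 of 6, 1 of 4 and 1 of 6 markers of their lists. Of 14 immediate early genes 1 rose, Ier3 (0.24 ± 0.07). Ier3, Adgre1 and the clock gene Bhlhe41 no longer passed without the array labelled 6 week sham, replicate 2 (adjusted p = 0.0537, 0.0515 and 0.0523). In smoke against sham 3 of 6 macrophage markers rose, Chil3 (1.52 ± 0.33), Ctsk (0.77 ± 0.20) and Marco (0.75 ± 0.17), and the mean over the 6 was 1.39 to 2.15 in smoke lungs and 0.58 to 1.31 in sham lungs. In the same comparison 2 of 6 fibroblast and muscle markers fell, Col3a1 (-0.65 ± 0.12) and Pdgfrb (-0.46 ± 0.09), and the median of the 6 was -0.19. Of the clock genes Nfil3 rose (0.70 ± 0.11) and Nr1d1 fell (-0.48 ± 0.11), and of the immediate early genes Ier3 rose (0.48 ± 0.11). None of the markers of alveolar type I and type II cells, endothelium, neutrophils, T and NK cells, red cells, heart muscle and fat passed in the comparisons over both durations. The part of these genes and cells in the differences of the 9 genes was not tested.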

How the data were processed

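Lung RNA of 39 mice (Cy5) and a universal mouse reference (Cy3) had been hybridized to Agilent oligonucleotide arrays, 1 array per mouse. The deposited files held spot and background intensity per dye as quantified by the authors with ImaGene, without correction, and a table of log2 ratios of lung over reference after global LOWESS by the authors, used here only as an alternative. Array precision is limited by the number of arrays and by signal over background, which was 2.2 to 8.94 per array. The study removed 1 array of the original set, which is not analysed here.

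Spot medians were background corrected with normexp (offset 50) and normalized by loess within arrays in limma 3.58.1 (R 4.3.3), with 1257 of 22575 spots, the controls, at weight 0. A probe was kept if its Cy5 signal exceeded the array threshold, the mean of 162 negative control spots after trimming 5% plus 3 trimmed SD, in at least 4 arrays of 1 group, which left 17560 of 20868 probes. Of the 20868, 18235 had 1 symbol in the platform annotation, 30 had several and 2603 had none. A linear model held the 8 groups and the 5 label runs (the sequence of exposure days in the labels), and 15 contrasts were tested with eBayes. Adjustment was that of Benjamini-Hochberg across the 17560 probes, and an adjusted p under 0.05 was called. Errors are SE of the log2 difference. Within a label run, differences of group means were taken without a test. The steps were tested on simulated data.

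Groups came from the sample titles. The 9 genes, the pathway lists and the marker lists were chosen with earlier results of these data known. Genes of the lists that are named with values passed in the contrast given; Cdkn1a and Zbtb7b are named for passing without 1 array. For each of the 9 genes the 3 genes with the highest Pearson correlation are named. Alternatives changed the background correction, normalization, spot summary, marked spots, probe filter, run block, array weights, arrays in the fit and threshold. Blocks from file header identifiers were added after seeing the data, as was the refit of each gene in the contrasts that it passed.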

Additional observations from a re-analysis of the deposited data

Results flagged for a closer look

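In 3 of the 72 combinations of gene and group with enough arrays, 1 array stood far from the others by Dixon's ratio of gap to range, and chance alone flags about 1 in 20. The log2 ratio of Zbtb16 was -0.379 in 12 week break sham replicate 5, against 0.53 to 0.86 in the other 4. It was -0.373 in 12 week sham replicate 1, against 0.38 to 0.68 in the other 4. The log2 ratio of Sgk1 was -0.275 in 6 week smoke replicate 4, against 0.51 to 0.55 in the other 4. Of 27 tests of a difference between effects in the 9 genes, 0 passed in limma.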

How the results depend on the processing

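Beside the reported values, 15 other settings were tried and each of 39 arrays was left out in turn. Among the settings, any probe of a gene reused the reported fit and could change nothing. The threshold of 0.1 reused it too and could only add calls. Where a count changed, the cause was not tested. Tsc22d3 in no break minus break passed under all settings and omissions, from 0.69 to 0.75 over the settings. With no label run in the model, 2 genes passed in no break minus break, 1 in 6 week smoke against smoke and break, 0 in 6 week sham against break sham and 0 in sham against break sham over both durations. With only the groups of the comparison in the fit, these last 3 gave 0, 0 and 0, 12 week smoke against smoke and break gave 0, and pooled smoke against sham 1. In 12 week smoke against smoke and break, 2 passed with median centring, 2 with spot means, 2 at an adjusted p under 0.1 and 4 with array weights. In 6 week smoke against smoke and break, 1 passed with marked spots left out and 4 with array weights. In 6 week sham against break sham, 0 passed with median centring and 0 with spot means. In pooled smoke against sham, 1 passed with spot means, 1 with array weights and 1 at an adjusted p under 0.1. Leaving out single arrays gave 1 to 2 genes in 12 week smoke against smoke and break (2 without 12 week break sham replicate 1 or 2, or 12 week smoke and break replicate 5), 0 to 1 in 6 week sham against break sham, 2 to 3 in 6 week smoke against smoke and break, 0 to 1 in pooled smoke against sham and 4 to 4 in no break minus break. All other counts kept their value under each omission.

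Signs changed only for differences that had not passed. Ddit4 was 0.028 in no break minus break with array weights, and in smoke minus sham 0.081 without label run, 0.031 with a random block, and -0.076 to 0.05 over single omissions. Nr3c1 in no break minus break was -0.012 with blocks from header identifiers and -0.025 to 0.038 over single omissions. In sham minus break sham, Dusp1 was -0.007 with marked spots left out and -0.029 without label run, and Zbtb16 was 0.066 with spot means. Only 8759 probes, 6 of the 9 genes among them, were above the threshold in all arrays. No paired analysis was possible because the labels give no replicate numbers, and those used here only name arrays in order. Label run, which matches arrays across groups, was the block of the reported model.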

Other observations

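The genes whose log2 ratios were most like those of the 9 were sought over the 39 arrays after centring on label run, as a description, since all arrays share the reference and the groups. Tsc22d3 was followed most closely by Cys1 (Pearson r 0.89, Spearman rho 0.89), Map3k6 (0.88, 0.86) and the clock output gene Hlf (0.87, 0.86). Klf9 was most like Tsc22d3 itself (0.75, 0.73), then Fnip1 and Cachd1. Fkbp5 was most like Cpox, a heme synthesis enzyme (0.76, 0.79), then Trnt1 and Gclm, a subunit of the glutathione synthesis enzyme. Dusp1 was most like Errfi1 and the immediate early gene Egr2 (r 0.79 each) and Zfp36. Cebpd was most like Pmvk (0.81, 0.81), Rgs1 and Nfkbia. Map3k6, Errfi1, Zfp36 and Nfkbia are on the list of further glucocorticoid-responsive genes above. Sgk1 was most like Mdfic (0.84, 0.68), Serbp1 and Maoa. The closest genes had r of 0.71 for Ddit4 (Incenp, then Fasl and Mif), 0.67 for Zbtb16 (Lemd3, then Commd8 and Ankzf1) and 0.63 for Nr3c1 (Zfand6, then Rhcg and Tmx3).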
